A study of Mus musculus with 4 samples.

Results

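Heat-shock cells are intratumoral T cells that carried many transcripts of Hspa1a and Hspa1b, the inducible Hsp70 genes, and few of the chemokine gene Ccl5. They were chosen by their RNA: at least 1 unique molecular identifier (UMI, a tag that marks 1 captured transcript) of Cd3d, Cd3e or Cd3g, at least 3 UMIs of Hspa1a and Hspa1b summed, fewer than 20 of Ccl5 and 0 of Foxp3, in barcodes in which 200 to 3000 genes were detected and mitochondrial UMIs made up no more than 5%. The rule found 795 of 38860 called cells, or 795 of the 14998 T cells that met every condition other than that on Hspa1a and Hspa1b (called eligible). They were set against the 13163 eligible cells with 0 UMIs of both genes (called Hsp-zero). The cells came from subcutaneous tumors of the Tsc2-deficient mouse kidney tumor line 105K in wild-type C57BL/6J mice, sorted for the surface protein CD3 and measured by CITE-seq, which counts polyadenylated RNA and antibody tags of each cell. The tumor cells carried either a non-targeting hairpin (sh-NC) or one directed at Cd276, which encodes the checkpoint ligand B7-H3 (sh-B7-H3 (1)), so both groups lacked Tsc2 in the tumor and the T cells themselves carried neither hairpin. The mice were male and 6 weeks old at injection. Each group has 2 libraries (replicates 1 and 2) of pooled tumors of 1 hairpin line. The sources differ on what they are: the series' design text has duplicate lanes of a pool, and a legend has independent samples. They were taken as lanes of 1 pool per group, so SDs and p-values may measure technical spread alone.

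Hsp70 chaperones hold unfolded proteins and help them refold. Hspa1a and Hspa1b are nearly silent in unstressed cells and are switched on by the heat shock factor Hsf1, which binds repeated nGAAn blocks in promoters, together with cochaperones of the Hsp40 family (Dnaj genes) and Hsp90 genes. The AP-1 factors Jun and Fos are immediate-early genes, induced within minutes by stress, antigen receptor signals or handling of tissue, and Ppp1r15a encodes the phosphatase subunit that ends the integrated stress response.

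The promoters of the 2 genes of the rule are shown first, since they are nearly identical, with those of Jun, which leads the state, and Hspe1, a chaperone gene whose promoter holds a longer run of heat shock blocks. Each sequence is the 250 bases before the RefSeq start of transcription (GRCm38.p6), written 5′ to 3′ on the gene's strand, with 2 facing heat shock blocks (GAANNTTC or TTCNNGAA) in capitals. Hspa1a (ENSMUSG00000091971) is at chr17:34972157-34972406 on the minus strand, Hspa1b (ENSMUSG00000090877) at chr17:34959239-34959488 on the minus strand, Hspe1 at chr1:55087898-55088147 on the plus strand and Jun (ENSMUSG00000052684) at chr4:95052223-95052472 on the minus strand.
Hspa1a: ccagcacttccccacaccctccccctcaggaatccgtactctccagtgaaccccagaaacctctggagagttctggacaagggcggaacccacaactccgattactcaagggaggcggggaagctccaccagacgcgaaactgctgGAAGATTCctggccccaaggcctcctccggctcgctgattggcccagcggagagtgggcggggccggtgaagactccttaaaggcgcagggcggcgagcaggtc
Hspa1b: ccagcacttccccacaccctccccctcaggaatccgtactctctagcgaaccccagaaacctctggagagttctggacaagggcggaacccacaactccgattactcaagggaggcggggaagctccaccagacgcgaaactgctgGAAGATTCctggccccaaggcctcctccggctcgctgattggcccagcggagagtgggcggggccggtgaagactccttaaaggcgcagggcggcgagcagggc
Hspe1: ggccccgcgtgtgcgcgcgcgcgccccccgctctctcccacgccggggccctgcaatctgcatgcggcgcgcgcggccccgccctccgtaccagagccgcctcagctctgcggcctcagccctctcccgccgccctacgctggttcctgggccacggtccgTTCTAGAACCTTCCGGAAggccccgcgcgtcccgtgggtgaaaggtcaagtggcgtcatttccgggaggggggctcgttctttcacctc
Jun: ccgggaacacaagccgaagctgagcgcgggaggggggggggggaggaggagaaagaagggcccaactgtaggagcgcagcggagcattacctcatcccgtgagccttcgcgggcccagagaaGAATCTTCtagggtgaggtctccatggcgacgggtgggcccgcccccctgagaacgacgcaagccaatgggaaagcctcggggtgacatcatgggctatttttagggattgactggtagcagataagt

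Hspa1a and Hspa1b differed at 3 of these 250 bases (C44T, T47C and T249G, counted from 1 at the 5′ end, Hspa1a first), and both held 1 block pair, whose first base lies at -104. Because the transcripts of both genes are also nearly identical, the split of UMIs between them is uncertain, and their sum was used. The pair GAANNTTC occurred, on either strand, in 7.95% of 27025 RefSeq promoters (300-base windows that run 50 bases past the start) and TTCNNGAA in 8.40%, so 1 pair alone is common. The run of 3 blocks (GAA, TTC and GAA, each 2 bases apart) contains both pairs and occurred in 0.529% of promoters. It was present in 3 of the 13 promoters matched among the 16 chaperone genes that were higher in heat-shock cells of all 4 libraries (23.1%; Hsph1, Chordc1 and Hspe1), in 4 of the 37 matched chaperone promoters in all (10.8%), and in 1 of the 12 matched among the 15 genes with the highest ratios (Tra2b). The cyclic AMP element TGACGTCA was present in 2 of those 12 promoters, one of them that of Ppp1r15a, against 1.88% of all promoters, and the AP-1 motif TGANTCA in 0 of 12 against 7.93%. These are matches of letters in 1 window and no evidence of binding.

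The libraries held 132820909, 126586948, 79224898 and 102213924 RNA UMIs in 12112, 10589, 7030 and 9129 called cells (here and below in the order sh-NC replicate 1, sh-NC replicate 2, sh-B7-H3 (1) replicate 1 and sh-B7-H3 (1) replicate 2). Heat-shock cells numbered 332, 274, 79 and 110. Their median depth was 9104, 9636, 8086 and 8788 UMIs against 8160, 8690, 6984 and 7188 in Hsp-zero cells, since a minimum in UMIs selects deeper cells. Mitochondrial shares were alike, 3.39 to 4.01% in heat-shock cells and 3.45 to 4.03% in Hsp-zero cells. Between 17 and 35 barcodes were shared by each pair of libraries.

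Some single cells stand apart, and results that rest on them are marked below. In sh-B7-H3 (1) replicate 1, 1 heat-shock cell held 1619 of the 1981 UMIs (81.7%) of 14 myeloid markers, and 3 cells with at least 20 such UMIs held 94.2%. In the other libraries 1, 1 and 0 heat-shock cells reached 20. S100a8 and S100a9 were at 0 in heat-shock cells of every library. In sh-B7-H3 (1) replicate 2, 1 heat-shock cell held 166264 UMIs of the CD205 tag, and the 2 cells of this library with over 50% of their tag UMIs in 1 tag other than CD90.2 made up 34.3% of its heat-shock tag UMIs. In sh-NC replicate 1 the 2 such cells, one with 48300 UMIs of the CD117 tag, made up 5.19%.

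The level of Hspa1a and Hspa1b varied widely among heat-shock cells. The median cell had 6, 6, 5 and 5 UMIs, and the highest 152, 117, 29 and 34. Cells at the minimum of 3 UMIs numbered 73, 60, 20 and 19, and cells just outside it, at 2 UMIs, 93, 57, 31 and 48. At least 10 UMIs were found in 98, 76, 18 and 25 cells. The tenth of cells with the most UMIs carried 34.9, 37.1, 28.6 and 25.9% of the UMIs of both genes in heat-shock cells. Heat-shock cells as a whole carried 87.2, 88.5, 73.4 and 75.2% of those in eligible cells. These shares follow in part from the rule, which picks cells by these UMIs, and are a description only.

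Free RNA in the suspension carried both genes as well. In droplets with 1 to 50 UMIs their summed level was 69.4, 60.8, 76.4 and 77.3 CPM (UMIs of a gene scaled to the same total of RNA UMIs in every library and group of cells), close to the 64.9, 66.6, 68.1 and 66.3 CPM of all eligible cells. A cell at the median depth of heat-shock cells, made up of free RNA alone, would hold 0.586 to 0.679 UMIs, below the minimum of 3. The levels in heat-shock cells were 970, 971, 838 and 773 CPM. Taken singly, a cell with 1 or 2 UMIs cannot be told from one that caught free RNA, although such cells as a group had more Jun and Junb RNA than Hsp-zero cells (given below).

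AP-1 and other immediate-early genes led the difference between heat-shock and Hsp-zero cells. These differences use the contrast that chose the cells and are given with no test. Among 1987 genes with at least 50 CPM in 1 state, 6 were at least 2-fold higher in all 4 libraries (0.302%) and 0 at least 2-fold lower (0%): Jun, Junb, Klf6, Dusp1, Ppp1r15a and Dnajb9. With Hsp-zero cells weighted to the depth of heat-shock cells 7 genes passed, among them all 6, and with cells that held RNA of other cell types left out 5 passed, 4 of them among the 6. Other choices kept fewer: 3 of the 6 passed with a minimum of 2 UMIs and 2 with up to 6000 genes. With Hsp-zero cells chosen without the conditions on CD3 and Foxp3, 2 of the 6 passed and 12 genes were lower. With Ccl5 under 3 UMIs 3 of the 6 passed and 5 genes were lower. In CD4 cells alone 2 of the 6 passed and 2 genes were lower, while in CD8 cells alone all 6 passed. Jun was at 820, 763, 609 and 490 CPM in heat-shock cells and at 292, 282, 139 and 141 CPM in Hsp-zero cells. The 2 ranges did not overlap, and the log2 ratios (of CPM + 1, here and below) were 1.49, 1.43, 2.13 and 1.79, the higher values in the sh-B7-H3 (1) libraries. Junb, a related AP-1 subunit, was at 673, 781, 781 and 585 CPM against 300, 297, 280 and 262 CPM. Ppp1r15a was at 183, 169, 96.5 and 103 CPM against 66.7, 62.1, 40.3 and 42.3 CPM. Its level was lower in the sh-B7-H3 (1) libraries in both states.

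Klf6 and Dusp1 were also among the 6 genes, and Fos and Egr1, which were not, are given beside them. Klf6, a zinc-finger factor of the immediate-early class, was at 200, 213, 149 and 133 CPM against 80.3, 79.3, 67.8 and 65.4 CPM. Dusp1, a phosphatase that turns off stress-activated kinases, was at 93.3, 98.8, 49.7 and 54.5 CPM against 37.1, 37.6, 24.1 and 21.3 CPM. Fos was at 100, 87.4, 69.3 and 22.4 CPM against 38.9, 35.4, 16.6 and 17.4 CPM. Its log2 ratio of 0.35 in sh-B7-H3 (1) replicate 2, from 23 UMIs in 16 cells, stands apart from 1.28 to 2.00 in the other libraries. In sh-B7-H3 (1) replicate 1, 12 of the 46 Fos UMIs came from 1 heat-shock cell. Free RNA carried Fos at 27.3, 33, 155 and 24.4 CPM, and its part in these ratios was not tested. Egr1, another immediate-early factor, had log2 ratios of 1.09 and 0.92 in the sh-NC libraries and 0.12 and 0.03 in the sh-B7-H3 (1) libraries. Of 7 AP-1 genes with at least 10 CPM on average, 5 were higher in all 4 libraries (Fos, Fosb, Jun, Junb and Jund) and 1 was lower (Maf), with a median log2 ratio of 0.64. Of 24 other immediate-early genes 9 were higher and 0 lower in all 4, with a median of 0.18. Over all 6281 genes at this level 5.91% were higher and 18.2% lower in all 4 libraries, with a median of -0.06.

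Chaperones of the cytosol formed the second group, with smaller ratios. Dnajb1, the Hsp40 partner of Hsp70, was at 182, 172, 145 and 134 CPM against 64.7, 65.6, 66.3 and 70.3 CPM. It was 2-fold higher in 3 libraries and had a log2 ratio of 0.92 in the other. Dnajb4, a second Hsp40 gene, had log2 ratios of 0.85, 0.81, 1.24 and 1.08. Hsp90aa1, the inducible Hsp90, was at 494, 521, 546 and 559 CPM against 314, 325, 378 and 356 CPM. Its log2 ratios of 0.53 to 0.68 were alike in both groups of libraries. Hsph1, the Hsp110 exchange factor, had log2 ratios of 0.25 to 0.55, and the constitutive chaperone Hspa8 of 0.29 to 0.39. Hspe1, the mitochondrial chaperone whose promoter holds a run of heat shock blocks (shown above), was at 692, 690, 660 and 646 CPM against 585, 585, 557 and 552 CPM, a small difference of 0.23 to 0.25 in every library.

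Of 27 cytosolic chaperone genes other than Hspa1a and Hspa1b, 14 were higher and 2 lower (Hspa4 and Dnaja2) in all 4 libraries. Their median log2 ratio was 0.10. Hspd1 and Hspe1 were the 2 of 7 mitochondrial chaperones that were higher in all 4. The mRNA of Hsf1 itself was at 23.2, 19.6, 27.1 and 11.7 CPM against 18.7, 18.6, 18.5 and 16.9 CPM and had no common direction. Bag3 and Hspb1, classic heat shock targets, were at 3.14 CPM or less in every library and state, too low to describe.

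**Figure D1:**
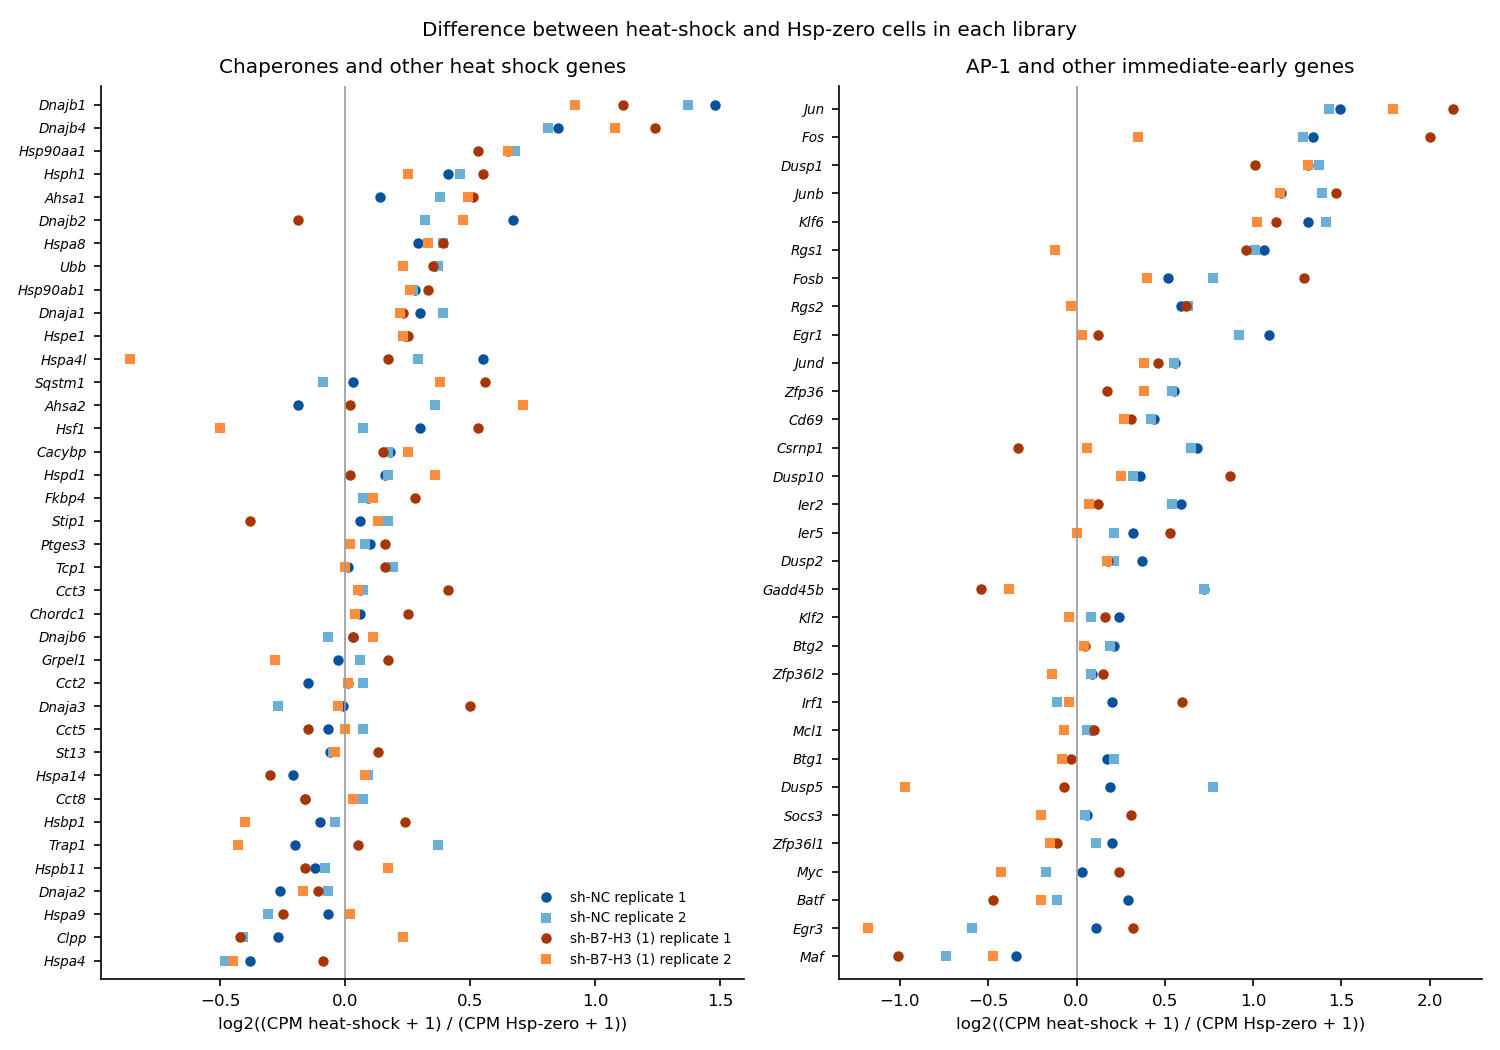
Log2 ratio of CPM + 1 in heat-shock to Hsp-zero cells (x axis) for each gene shown (y axis) in each of the 4 libraries (points), for chaperones and other heat shock genes (left) and AP-1 and other immediate-early genes (right) with at least 10 CPM on average. Jun lies above 1.4 in every library, Dnajb1 between 0.92 and 1.48, and Hspe1 close to 0.24.

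Genes of other stress programs moved both ways, and the counts of most of these lists lay near those over all genes (5.91% higher and 18.2% lower in all 4 libraries). Dnajb9, a cochaperone of the endoplasmic reticulum, was at 73.2, 69.5, 58.8 and 46.7 CPM against 25.1, 26.2, 23.3 and 22.3 CPM. Hspa5, the Hsp70 of that compartment, had log2 ratios of 0.17 to 0.44. Of 17 genes of the unfolded protein response these 2 were higher and 4 lower in all 4 libraries (Canx, Pdia6, Herpud1 and Selenos). Of 4 integrated stress response genes Ppp1r15a, Atf4 and Cebpb were higher and Ddit4, a target of stress and glucocorticoids that restrains mTORC1, was lower (71.9, 70.6, 51.2 and 45.7 CPM against 106, 106, 59.7 and 59.4 CPM). Ddit3 was not analysed here. Of the oxidative stress list 0 of 8 genes were higher and 2 lower (Txnrd1 and Sod2), and of the glucocorticoid list 0 of 7 higher and 2 lower (Sgk1 and Ddit4). Of 12 genes of NF-kB feedback, 2 were higher (Nfkbiz and Birc3) and 1 lower (Bcl3), and of 6 apoptosis genes 0 were higher and 2 lower (Bcl2l11 and Trp53inp1).

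Also among the 15 genes with the highest ratios were Coq10b, a coenzyme Q binding protein (0.88 to 1.01), Rlim, a ubiquitin ligase (0.46 to 0.90), the splicing factor gene Tra2b (0.51 to 0.89), Pnrc1 (0.59 to 0.69) and the splicing kinase gene Clk1 (0.45 to 0.66). At the other end were hemoglobin and macrophage transcripts, which T cells do not make. Hbb-bs was at 0.314, 0.713, 0 and 0.973 CPM in heat-shock cells and at 5.18, 230, 1074 and 1.67 CPM in Hsp-zero cells, and Hba-a1 and Hbb-bt followed it. Lyz2 was at 3.45, 4.99, 87.4 and 6.81 CPM against 26.3, 27.1, 116 and 124 CPM. In all, 3 of 4 erythroid markers, 3 of 10 myeloid markers and the 2 genes counted from the NK list (Fcer1g and Tyrobp) were lower in all 4 libraries, and 0 were higher. Ncr1, Klrb1c and Klre1 of the 6 genes of the NK list lay below the level counted, so Fcer1g and Tyrobp are not read as an NK result. Over all genes 5.91% were higher and 18.2% lower. Hbb-bs UMIs lay in only 0.43, 0.562, 0.837 and 1.2% of Hsp-zero cells, so its sums rest on few cells. The share of cells with at least 20 myeloid UMIs was 0.301, 0.365, 3.8 and 0% of heat-shock cells against 1.27, 1.33, 5.4 and 4.71% of Hsp-zero cells. Among T cell genes the lowest ratios were -0.01 to -1.03 for S100a4, -0.28 to -0.73 for S100a6, -0.10 to -0.89 for Mxd4 and -0.15 to -0.84 for Id3, an inhibitor of E proteins. The list ended with Cpsf6, BE692007, Aqr, Atp6v1d, Pnn and C1qb, the first 5 at -0.65 to -0.09 in every library.

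The levels followed the dose of Hspa1a and Hspa1b. Over eligible cells of all libraries summed in bins of 0, 1, 2, 3 to 4, 5 to 9, 10 to 19 and at least 20 UMIs, with 13163, 811, 229, 292, 286, 160 and 57 cells, Jun was at 258, 372, 460, 595, 691, 938 and 1128 CPM. Dnajb1 was at 65.8, 88.2, 106, 129, 148, 203 and 379 CPM. Hsp90aa1 was at 328, 368, 465, 436, 489, 533 and 1031 CPM, with most of its difference in the top bin. Hspa8 was at 1261 CPM in the lowest and 2062 CPM in the top bin, and Gapdh, an enzyme of glycolysis, at 448 and 500 CPM. So, Jun and Junb were already higher in cells just outside the rule, at 2 UMIs (460 and 481 CPM against 258 and 293 CPM at 0). The top bin, in which Dnajb1 and Hsp90aa1 were highest, holds few cells, 51 of which came from the sh-NC libraries and 6 from the sh-B7-H3 (1) libraries.

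**Figure D2:**
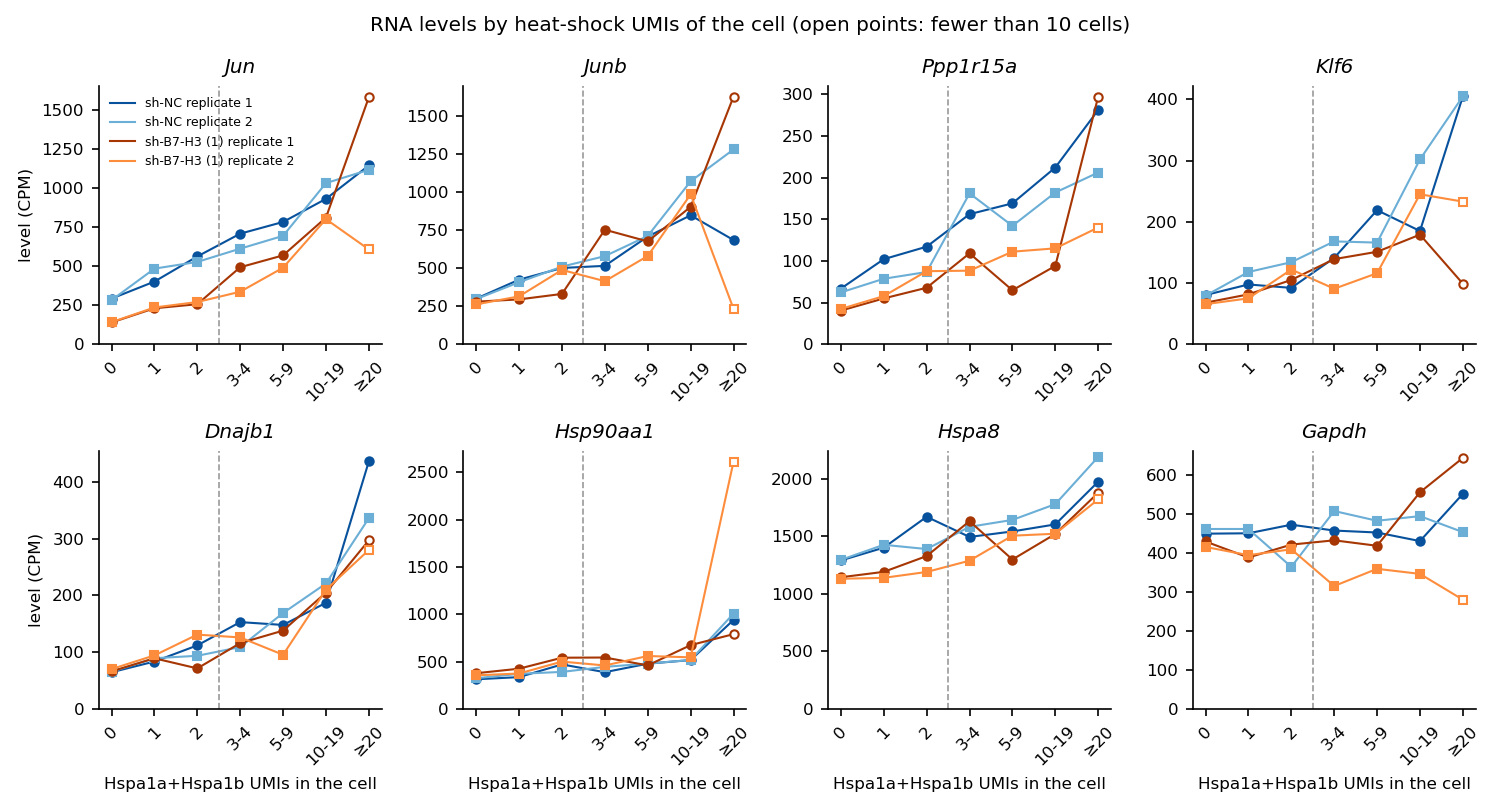
Level of 8 genes in CPM (y axes, from 0) in cells with 0 to at least 20 UMIs of Hspa1a and Hspa1b (x axis) in each of the 4 libraries (lines); the dashed line marks the minimum of the rule, and open points stand for fewer than 10 cells. Jun, Junb, Ppp1r15a, Klf6 and Dnajb1 are higher at 10 to 19 than at 0 UMIs in every library, while Gapdh has no common direction.

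The cells were T cells that carried RNA of naive as well as cytotoxic genes, and the word non-effector holds only as far as the limit on Ccl5. The naive factor Tcf7 was at 305, 297, 219 and 244 CPM in heat-shock cells against 319, 324, 247 and 233 CPM in Hsp-zero cells. Of 13 naive and resting genes 0 were higher and 4 lower in all 4 libraries (Ccr7, Bach2, Igfbp4 and Foxp1), with a median of -0.09. Gzmk was at 0.314, 2.14, 9.04 and 5.84 CPM. Nkg7, a cytotoxic granule gene, was at 321, 341, 318 and 345 CPM, with UMIs in 186, 166, 49 and 70 heat-shock cells. Free RNA carried it at 638, 656, 1391 and 1401 CPM, and the part of free RNA in its level was not tested. Cells with 0 Ccl5 UMIs made up 80.1, 75.2, 34.2 and 34.5% of heat-shock cells and 83.3, 78.7, 29.7 and 24.8% of Hsp-zero cells. Thus, most heat-shock cells of the sh-B7-H3 (1) libraries held at least 1 Ccl5 UMI, as did their Hsp-zero cells. Free RNA carried Ccl5 at 1560, 1670, 4348 and 4898 CPM, above the 54.3, 73.5, 249 and 218 CPM of heat-shock cells. A cell at their median depth, made up of free RNA alone, would hold 14.2, 16.1, 35.2 and 43 Ccl5 UMIs. So, 1 or a few such UMIs cannot be told from free RNA. Of 9 cytotoxic genes 1 was higher and 2 were lower, of 5 inhibitory receptors 0 and 2, and of 10 interferon genes 4 and 0 (Irf7, Usp18, Bst2 and Xaf1). Of 10 T cell receptor genes these were 0 and 3, of 3 proliferation genes 1 and 1 (Pcna and Stmn1), and of 15 ribosomal protein genes 4 and 0. Beside these counts, 5.91% of all 6281 genes were higher and 18.2% lower in all 4 libraries.

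Cells with the same heat-shock UMIs also lay outside the rule. Of the kept T cells with at least 3 UMIs of Hspa1a and Hspa1b, 378, 323, 159 and 217 in all, the rule took 332, 274, 79 and 110, a smaller part in the sh-B7-H3 (1) libraries. Foxp3 RNA was present in 17, 15, 14 and 18 such cells. Ccl5 reached 20 UMIs in 30, 35, 67 and 93, which were 4.13, 4.70, 4.43 and 4.60% of all T cells with that much Ccl5. These shares were close to those among eligible cells given below.

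CD8 cells made up more of the heat-shock than of the Hsp-zero cells in sh-NC replicate 1. Among cells with RNA of Cd4 alone or of Cd8a or Cd8b1 alone, CD8 cells made up 75.3% (exact 95% interval 69.4 to 80.6), 70.6% (63.8 to 76.7), 52.0% (37.4 to 66.3) and 64.4% (52.3 to 75.3) of heat-shock cells. In Hsp-zero cells they made up 64.2, 64.9, 64.4 and 65.2%. The intervals of the other 3 libraries hold their Hsp-zero shares, so a difference was not detectable there at this depth. Both Cd4 and Cd8 RNA were present in 11.1, 11.7, 21.5 and 18.2% of heat-shock cells and in 8.84, 10.1, 15 and 13% of Hsp-zero cells, and 5.12, 5.84, 1.27 and 3.64% of heat-shock cells were scored as doublets, against 3.30, 3.76, 1.6 and 3.23%. The intervals cover counting error only.

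Most surface tags took a slightly smaller share of tag UMIs in heat-shock cells, and none differed by 1.5-fold throughout. Of 197 antibody tags 0 were at least 1.5-fold higher (0%) and 0 at least 1.5-fold lower (0%) in all 4 libraries. At any size 0 were higher (0%) and 136 lower (69%) in all 4, with a median log2 ratio of -0.18, and 7 of the 9 isotype controls were among the 136. Without cells dominated by 1 tag, 5 were higher and 137 lower, with a median of -0.14. CD24, a glycoprotein found on B cells and granulocytes, was past 1.5-fold lower in 3 libraries, with log2 ratios of its share of tag UMIs of -0.61, -1.92, -1.30 and -0.16. CD11a, the integrin chain of LFA-1, was past 1.5-fold higher in 3, with 0.71, 0.61, 0.60 and -0.41. The value of opposite sign belongs to the library in which 1 cell held 166264 CD205 UMIs, a cell that lowers the share of every other tag. The median cell, which that cell does not move, had 11, 9, 10 and 6 CD11a UMIs in heat-shock cells and 6, 5, 6 and 4 in Hsp-zero cells, higher in all 4 libraries. The median for CD8b was 29, 31, 5 and 6 against 8, 9, 4 and 3 UMIs, but its share of tag UMIs had log2 ratios of 0.00, 0.02, -0.31 and -0.63. In sh-B7-H3 (1) replicate 2 that share was 0.602% without cells dominated by 1 tag, close to the 0.617% of its Hsp-zero cells. The measures thus differ in sign in sh-B7-H3 (1) replicate 1, which had 0 such heat-shock cells. The CD69 tag, the surface form of an immediate-early product, had medians of 17, 14, 21 and 15 against 16, 14, 21 and 15 UMIs, although Cd69 RNA was at 263, 248, 122 and 108 CPM against 193, 185, 98.3 and 89.5 CPM. Isotype controls, which bind no mouse antigen, took 0.258 to 0.400% of tag UMIs in heat-shock cells and 0.295 to 0.477% in Hsp-zero cells.

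The next comparison asked whether heat-shock cells were more or less frequent in tumors with the B7-H3 hairpin. They made up 5.30% (4.76 to 5.88), 5.46% (4.85 to 6.13), 5.05% (4.02 to 6.26) and 5.12% (4.22 to 6.13) of eligible T cells. The means were 5.38 ± 0.114% in sh-NC and 5.08 ± 0.0461% in sh-B7-H3 (1) (SD, n = 2 each), a ratio of 0.945, with p = 0.333 by a two-sided exact permutation test, which cannot go lower for 2 against 2 libraries. The groups did not overlap, but the gap was smaller than every counting interval. Matching depth moved the ratio both ways. It was 1.12 with every library standardised to the sh-NC distribution of depth. With every cell thinned to 1000 UMIs, which left out 21, 8, 109 and 158 shallower cells, the minimum of 3 UMIs was met by 0.528, 0.539, 0.412 and 0.502%, a ratio of 0.857 from 33, 27, 6 and 10 cells. At 2000 UMIs it was met by 1.51, 1.38, 1.46 and 1.67%, a ratio of 1.08 with overlapping groups. At least 1 UMI, a level that free RNA can give, was found in 3.92, 3.47, 4.33 and 5.32% of cells thinned to 1000 UMIs (ratio 1.30) and in 11, 11.4, 15.9 and 15.1% of unthinned cells. No direction of the share can be read from these values.

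Cells with many heat-shock UMIs were fewer in the sh-B7-H3 (1) libraries. Cells with at least 10 UMIs of Hspa1a and Hspa1b made up 1.56, 1.51, 1.15 and 1.16% of eligible cells, a ratio of 0.752, and cells with at least 20 made up 0.415, 0.498, 0.192 and 0.140%, a ratio of 0.363 that rests on 26, 25, 3 and 3 cells. Both minimums were chosen after the data were examined, and each had an exact permutation p = 0.333. With every library weighted to the sh-NC distribution of depth the shares were 1.64, 1.54, 1.20 and 1.23% at 10 UMIs (ratio 0.764) and 0.437, 0.556, 0.162 and 0.0813% at 20 UMIs (ratio 0.245). As a share of all kept T cells with CD3 RNA, heat-shock cells were 4.42, 4.42, 2.34 and 2.45%, since more cells of the sh-B7-H3 (1) libraries reached 20 Ccl5 UMIs and left the eligible set.

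By lineage the groups differed in opposite directions. Among cells with Cd4 RNA alone 3.77% (2.89 to 4.83), 4.75% (3.65 to 6.08), 6.69% (4.33 to 9.78) and 5.38% (3.55 to 7.79) were heat-shock cells, from 60, 60, 24 and 26 cells. Among cells with Cd8 RNA alone they were 6.11% (5.28 to 7.02), 5.89% (4.99 to 6.89), 4.17% (2.74 to 6.05) and 5.13% (3.79 to 6.76), from 183, 144, 26 and 47 cells. So, both sh-B7-H3 (1) libraries lay above both sh-NC libraries for CD4 cells and below them for CD8 cells. All intervals of a lineage overlap at least 1 interval of the other group, and each comparison had an exact permutation p = 0.333.

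**Figure D3:**
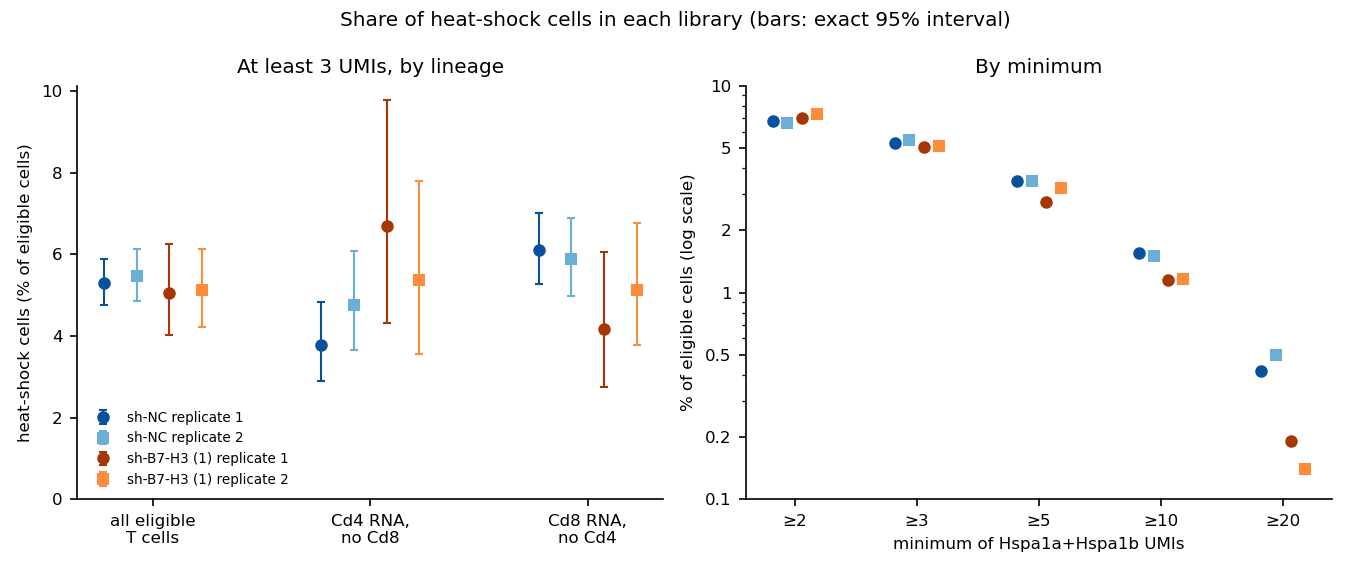
Heat-shock cells as a percentage of eligible T cells (y axes; left from 0, right on a log scale) in each of the 4 libraries (points). Left, all eligible cells and cells with Cd4 or Cd8 RNA alone, with exact 95% intervals; right, by the minimum of UMIs of Hspa1a and Hspa1b. The libraries lie together at 5.05 to 5.46% for all cells at the minimum of 3 UMIs and part toward 20 UMIs, minimums that are not matched for depth.

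The last comparison asked which genes differed between the groups within heat-shock cells. UMIs were summed over the heat-shock cells of each library and compared by the quasi-likelihood test of edgeR. A call required a 2-fold change and a p under 0.05 after Benjamini-Hochberg adjustment. Of 8077 genes tested 28 were called higher in sh-B7-H3 (1) (0.347%) and 9 lower (0.111%), and by adjusted p alone 48 rose (0.594%) and 37 fell (0.458%). Ccl5, bounded by the rule, was among the 28 and is not read further. DESeq2 called 6. In Hsp-zero cells, with far more cells, 587 of 12400 genes were called higher (4.73%) and 15 lower (0.121%), and 24 of the 37 genes called in heat-shock cells were called there as well. Chaperones did not pass in heat-shock cells: 0 of 28 cytosolic genes were called at either threshold, 7 lay higher and 7 lower in both sh-B7-H3 (1) libraries than in both sh-NC libraries, and their median log2 change was 0.01. Across all genes 17% were separated in this way upward and 24.8% downward. Hspa1a (351, 354, 353 and 267 CPM) and Hspa1b (619, 617, 485 and 507 CPM) are held up by the rule in these cells and are given without a test.

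A minority of immediate-early genes fell, and 2 of them, Fos and Cd69, were called. Fos was called lower (log2 change -1.14 ± 0.22 SE, edgeR adjusted p = 0.0035), from 100 and 87.4 to 69.3 and 22.4 CPM, but without sh-B7-H3 (1) replicate 2 its log2 change was -0.45 and no longer passed. Its call was also lost in CD4 cells and in CD8 cells alone, with minimums of 5 UMIs and of 0.05% of UMIs, with up to 6000 genes and with DESeq2. Fos in free RNA was at 27.3, 33, 155 and 24.4 CPM, above both sh-B7-H3 (1) levels, and the part of free RNA in its change was not tested. Cd69, the early activation antigen, was called lower (-1.12 ± 0.11, edgeR adjusted p = 1.08e-07), from 263 and 248 to 122 and 108 CPM. Free RNA carried Cd69 at 141, 143, 102 and 109 CPM. Its change lay between -1.93 and -0.76 under 21 alternatives and was not called under 4. In CD4 cells alone it was -1.93 (edgeR adjusted p = 0.00956) and in CD8 cells alone -0.76 (edgeR adjusted p = 0.103). The share of CD8 cells among heat-shock cells also differed between the libraries, as given above. Ier2, an immediate-early nuclear protein gene, fell less than 2-fold, from 217 and 203 to 110 and 110 CPM (-0.88, edgeR adjusted p = 2.08e-05). Ppp1r15a fell from 183 and 169 to 96.5 and 103 CPM (-0.76 ± 0.12, edgeR adjusted p = 4.73e-04) and Jun from 820 and 763 to 609 and 490 CPM (-0.50, edgeR adjusted p = 8.32e-04). Dusp1 (-0.82, adjusted p = 0.00197), Egr1 (-0.83, adjusted p = 0.00282) and Klf6 (-0.51, adjusted p = 0.0133) fell in the same edgeR fit. Of 8 AP-1 genes 3 fell by adjusted p and 0 rose, with a median of -0.27. Of 29 other immediate-early genes 8 fell and 0 rose, with a median of -0.36 against 0.01 over all genes. In both sh-B7-H3 (1) libraries 19 of the 29 lay lower than in both sh-NC libraries, against 24.8% of all genes. In Hsp-zero cells 14 of 32 such genes fell and 8 rose by adjusted p, with a median of -0.09.

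Several of these decreases were also present in cells without heat-shock RNA. In Hsp-zero cells Jun was at 292 and 282 against 139 and 141 CPM, Fos at 38.9 and 35.4 against 16.6 and 17.4 CPM, and Cd69 at 193 and 185 against 98.3 and 89.5 CPM. In the sh-B7-H3 (1) libraries free RNA lay above these levels for Fos (155 and 24.4 CPM) and Cd69 (102 and 109 CPM). The part of free RNA in these decreases was not tested. Of the 37 genes called in heat-shock cells 34 passed the adjusted p in the same direction in Hsp-zero cells. The difference of the hairpin's effect between the states was tested as an interaction with the library as a term, and 12 of 10473 genes passed (0.115%), among them Ccl5, which the rule bounds. Jun was another: its log2 change was -0.50 in heat-shock cells and -1.02 in Hsp-zero cells, so the gap between heat-shock and Hsp-zero cells was wider in the sh-B7-H3 (1) libraries (difference 0.49 ± 0.09, edgeR adjusted p = 0.00574). Free RNA carried Jun at 275, 236, 333 and 179 CPM, below heat-shock cells of every library but above Hsp-zero cells of the sh-B7-H3 (1) libraries and close to those of sh-NC. Egr1 went the other way, with -0.83 in heat-shock cells and 0.08 in Hsp-zero cells (edgeR adjusted p = 0.0106 for the difference). Free RNA carried Egr1 at 43.4, 40.1, 73.9 and 46.4 CPM. This was near or above its level in Hsp-zero cells (40.5, 43.9, 38.7 and 48.6 CPM) and in heat-shock cells of sh-B7-H3 (1) (42.2 and 49.6 CPM). Heat-shock cells of sh-NC were at 87.6 and 83.8 CPM. The part of free RNA in either difference was not tested. The differences of Jun and Egr1 kept their direction under 18 alternatives, but Jun was not called under 8 and Egr1 not under 9, among them Ccl5 under 3 UMIs (adjusted p of 0.233 and 0.453 in edgeR), CD4 or CD8 cells alone and DESeq2.

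**Figure D4:**
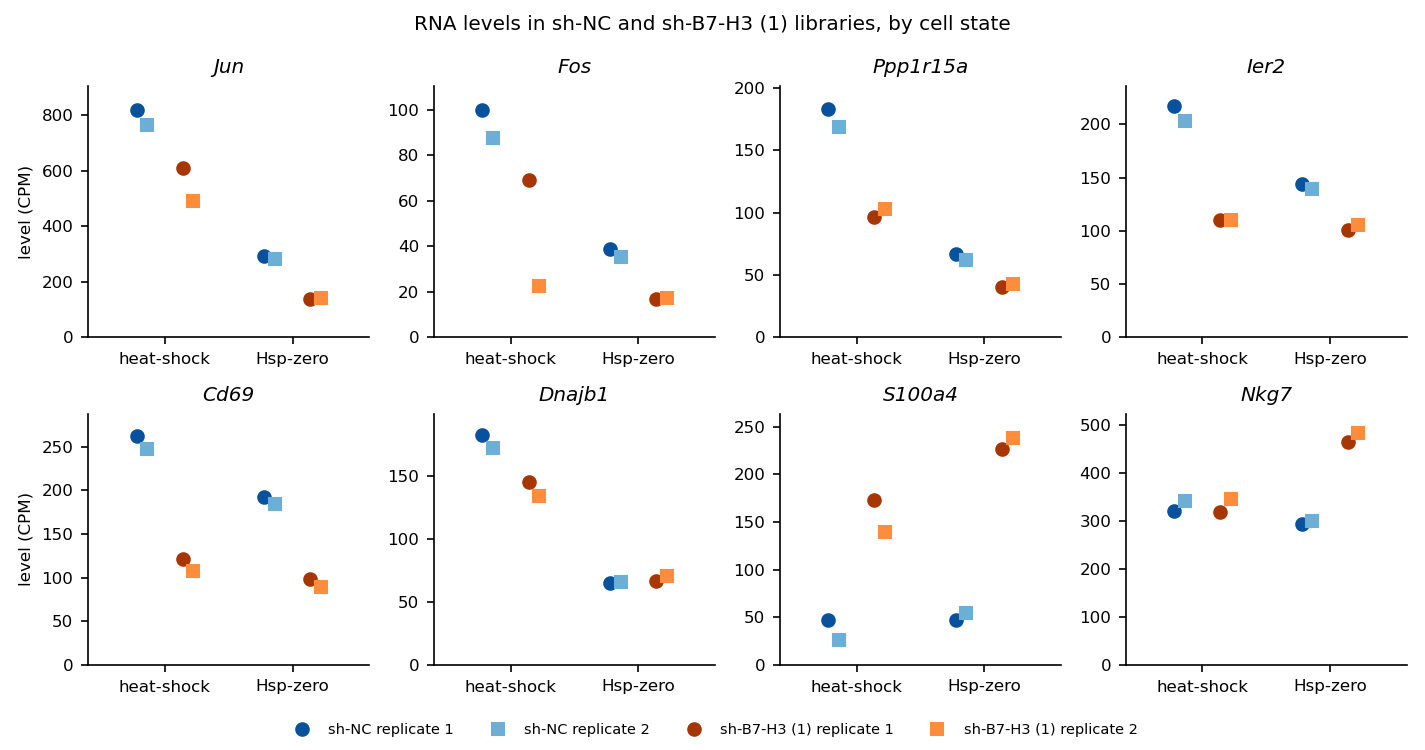
Level in CPM (y axes, from 0) of 8 genes in heat-shock and Hsp-zero cells (x axes), with 1 point for each of the 4 libraries. Jun, Fos, Ppp1r15a, Ier2 and Cd69 lie lower in the sh-B7-H3 (1) libraries in both states, Dnajb1 is near 66 CPM in all Hsp-zero points, S100a4 is higher in sh-B7-H3 (1) in both, and Nkg7 is higher in sh-B7-H3 (1) among Hsp-zero points and overlaps among heat-shock points.

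The genes called higher fell into groups that differed in how many cells carried them. S100a4, a calcium-binding protein of memory and effector T cells, rose from 46.8 and 26.0 to 173 and 139 CPM (2.10 ± 0.17, edgeR adjusted p = 1.25e-09), and S100a6 from 33.3 and 45.7 to 149 and 139 CPM (1.92 ± 0.14, edgeR adjusted p = 2.46e-10). S100a4 UMIs lay in 15, 15, 22 and 21 cells. Free RNA carried S100a4 at 159, 172, 594 and 551 CPM and S100a6 at 265, 279, 846 and 645 CPM, above the cells and with the same direction between the groups. The cell with the most S100a4 held 34, 18, 23 and 37 UMIs. The part of free RNA in these changes was not tested. Itgb1, Cish, Sytl2, Il18r1 and Hist1h4d, each in at least 12 cells of every library, rose by 1.09 to 1.78 on the log2 scale. Free RNA of the first 4 was also higher in both sh-B7-H3 (1) libraries. That of Itgb1, Cish and Sytl2 lay above heat-shock cells in every library (Itgb1 at 41.8, 39.5, 86.3 and 89.5 against 31.4, 27.5, 58.8 and 73 CPM). Free RNA of Hist1h4d, at 17.2, 21.6, 22.8 and 31.3 CPM, lay below its 27.9, 28.2, 73.9 and 55.5 CPM in heat-shock cells. The part of free RNA in these changes was not tested. Gm42418 (4716, 4817, 30877 and 31098 CPM), AY036118 (431, 474, 2059 and 1895 CPM) and Lars2 (121, 126, 574 and 529 CPM) rose by 2.74, 2.17 and 2.20. UMIs of Gm42418 lay in every heat-shock cell, those of AY036118 in 323, 269, 79 and 110 and those of Lars2 in 216, 200, 74 and 108 cells. These loci are known to pick up reads of ribosomal RNA, and they rose by 2.56, 2.07 and 2.15 in Hsp-zero cells. Their free RNA was higher in the sh-B7-H3 (1) libraries as well (Gm42418 at 10287, 9173, 30157 and 25297 CPM).

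Other calls rested on single cells or on RNA that was also free. H2-Ab1, a class II antigen presentation gene, had the largest change (6.17 ± 0.83, edgeR adjusted p = 2.91e-05) with 1.26, 2.85, 327 and 6.81 CPM, and 188 of its 217 UMIs in sh-B7-H3 (1) replicate 1 came from 1 cell. The same library held 75.9 to 89.3% of its UMIs of Cd74, H2-Aa, H2-Eb1, Lyz2, C1qa, C1qb, Fcer1g and Apoe in 1 cell each. Of 9 myeloid markers tested 8 were called higher, but only 2 lay higher in both sh-B7-H3 (1) libraries. With cells carrying at least 2 UMIs of other cell types left out, 36 genes were called, 20 of them among the 37, and H2-Ab1 was not, while Cd69, Fos, S100a4 and S100a6 still were. Ifitm2 (1.57, 1.43, 25.6 and 56.4 CPM) lay in 2 cells of sh-B7-H3 (1) replicate 2, and Penk, called lower, had 78 of 132 and 39 of 40 UMIs of the sh-NC libraries in 1 cell each. Of the cytotoxic list 2 of 11 genes tested were called higher, Ccl3 and Xcl1. Of the 56 Xcl1 UMIs of sh-B7-H3 (1) replicate 2, 35 came from 1 cell. Ccl3 UMIs were spread, at most 2 in a cell of the sh-B7-H3 (1) libraries. Its 3.77, 4.28, 22.6 and 12.6 CPM lay below the 108, 108, 355 and 350 CPM of free RNA, and these few UMIs cannot be told from free RNA. Of the naive list 2 of 13 fell, with a median of -0.15.

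Tags were tested in the same way, so their log2 changes follow TMM scaling and are not ratios of the shares of tag UMIs printed beside them. Of 197 tags 1 was called higher in sh-B7-H3 (1) (CD22, 0.508%) and 4 lower (CD26, CD45, CD8b and Ly-6C, 2.03%). CD22 took 0.0192, 0.0237, 0.0726 and 0.0435% of tag UMIs (log2 change 1.13 ± 0.13, edgeR adjusted p = 0.0112), a median of 1, 1, 3 and 2 UMIs per cell. The isotype control IgG1 RTK2071 took more in each library (0.0487, 0.0474, 0.0841 and 0.0673%). In sh-B7-H3 (1) replicate 1 the other isotype controls took 0.0182 to 0.0697%, less than CD22. So, CD22 lay within the range of the isotype controls, and the part of background binding in its change was not tested. All isotype controls together took 0.261, 0.258, 0.400 and 0.327%, also more in sh-B7-H3 (1). CD8b took 0.821, 0.844, 0.467 and 0.399% (-1.20 ± 0.15, edgeR adjusted p = 0.0126). By RNA, CD8 cells also made up less of the heat-shock cells of sh-B7-H3 (1) (75.3, 70.6, 52.0 and 64.4%, given above). The part of lineage in the CD8b change was not tested. CD26, a peptidase of the T cell surface, took 2.33, 2.41, 1.66 and 1.20% (-1.01 ± 0.09, edgeR adjusted p = 0.00752). Ly-6C, a marker of memory cells, took 1.90, 1.81, 0.875 and 0.945% (-1.25 ± 0.27, edgeR adjusted p = 0.0364). In sh-B7-H3 (1) replicate 2 the shares without cells dominated by 1 tag were 1.42% for Ly-6C and 0.602% for CD8b, so the sh-B7-H3 (1) libraries are less alike than the shares above; both tags were still called without those cells. CD45 took 3.07, 1.40, 0.727 and 0.479% (-2.19 ± 0.44, edgeR adjusted p = 0.0321). In sh-NC replicate 1, 31630 of its 57669 UMIs came from 1 cell. Without the 4 cells dominated by 1 tag, its change was -1.49 and CD26 fell just short of 2-fold. Without sh-NC replicate 1, 0 tags were called, with 68 at an unadjusted p under 0.05.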

How the data were processed

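The authors deposited UMI counts of 32285 genes and of antibody tags for called and for all barcodes, aligned to mm10 with STAR within Cell Ranger and not normalised; the submitters' notes also name Seurat 4.0.0. Groups came from the sample titles. The members and gene lists were chosen with earlier results of these data known.

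Barcodes were filtered and cells chosen as stated in the report. Levels are CPM of the UMIs summed per library and state, and state ratios are log2 of CPM + 1. Groups were compared with edgeR 4.0.16 (R 4.3.3) by the quasi-likelihood test with TMM scaling and filterByExpr, without a block. Standard errors were derived from the F statistic. The fits were also run on simulated counts with the same dispersion for every gene, which does not cover genes whose UMIs lie mostly in 1 cell. Shares were compared by the two-sided exact permutation test over libraries, with Clopper-Pearson 95% intervals. Doublets were scored with Scrublet (scanpy 1.11.5) and not removed: the automatic threshold marked under 0.5% of cells, so the Otsu threshold was used. Alternatives are given at the end, among them DESeq2 1.42.0.

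Besides list genes, the text names the 15 highest and 15 lowest state ratios with 1 sign in all libraries among genes of at least 50 CPM, the 10 highest and 10 lowest called changes between groups at that level whose libraries did not overlap, and called tags, leaving out genes of the rule and mitochondrial, ribosomal protein and receptor segment genes. Genes outside these rules, such as those carried by few cells, were named after their values were seen. One tag without a name was left out, and some list genes are not reported here. The study removed doublets and clustered the cells, steps not repeated here. Same-numbered libraries did not deviate together (correlations of -0.28 in heat-shock and -0.945 in Hsp-zero cells, 0.0974 there without 4 hemoglobin genes).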

Additional observations from a re-analysis of the deposited data

Results flagged for a closer look

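For 12 genes the difference of the hairpin's effect between heat-shock and Hsp-zero cells passed the test of the interaction (edgeR, adjusted p from 4.23e-10 to 0.0215). The difference (log2 change in heat-shock cells minus that in Hsp-zero cells) was -3.75 for Ccl4, -3.55 for Nrgn, -3.53 for Penk, -1.12 for Izumo1r, -0.95 for Egr1, -0.93 for Ctla2a, -0.87 for Bcl2a1b, -0.77 for Cxcr6, -0.70 for Ccl5, -0.67 for Nkg7, 0.49 for Jun and 3.31 for Ifitm2. Ccl4, Cxcr6 and Nkg7 are genes of effector T cells. Ccl4 was at 55, 21, 36.2 and 28.2 CPM in heat-shock cells and at 12.9, 21.6, 210 and 162 CPM in Hsp-zero cells, and 164 of its 175 UMIs in heat-shock cells of sh-NC replicate 1 came from 1 cell. Nkg7 was at 321, 341, 318 and 345 CPM against 294, 299, 465 and 484 CPM, and its UMIs lay in 186, 166, 49 and 70 heat-shock cells. Free RNA carried Ccl4 at 248, 241, 636 and 598 CPM and Nkg7 at 638, 656, 1391 and 1401 CPM. It carried Cxcr6 at 116, 110, 294 and 307 CPM, against 74.7, 63.8, 87.4 and 88.5 CPM in heat-shock cells. For Bcl2a1b, Ctla2a and Izumo1r it also lay above heat-shock cells in every library. The part of free RNA in these differences was not tested. Ccl5 is bounded by the rule in both states, so its value is no finding. Nrgn, Penk and Ifitm2 rested on 0 to 6 heat-shock cells per library with a UMI, and 67.2% of Ifitm2 UMIs in heat-shock cells of sh-B7-H3 (1) replicate 2 came from 1 cell. With Ccl5 limited to under 3 UMIs in both states, edgeR called 0 genes, with 542 at an unadjusted p under 0.05.

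The share of heat-shock cells had a ratio of sh-B7-H3 (1) to sh-NC of 1.42 among cells with Cd4 RNA alone and of 0.775 among cells with Cd8 RNA alone. Both sh-B7-H3 (1) libraries lay above both sh-NC libraries among the former and below them among the latter. The difference between the lineages was not tested.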

How the results depend on the processing

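No alternative reversed the change of a gene named by the rule for the comparison between groups: of 163 alternative values of 8 genes, 146 kept direction and call and 17 kept direction without passing (Fos under 7 alternatives, Cd69 under 4, H2-Ab1, S100a4 and S100a6 under 2 each). H2-Ab1 was also not called under 5 more, where too few UMIs were left to test it (minimums of 5 UMIs and of 0.05% of UMIs, Ccl5 under 3 UMIs, CD4 cells and cells with other cell type RNA left out). The ratio of shares turned above 1 with a minimum of 2 UMIs (1.07), a minimum of 0.05% of UMIs (1.17), CD4 cells (1.42), cells with other cell type RNA left out (1.02), standardised depth (1.12) and thinning to 1000 (1.30) and 2000 UMIs (1.25) with at least 1 UMI required; with at least 3, chosen after the data were examined, it was 0.857 and 1.08. It was 0.931 to 0.959 without each library in turn. Genes called in heat-shock cells (37) numbered 104 with a minimum of 2 UMIs, 75 with up to 6000 genes, 14 with Ccl5 under 3 UMIs, 6 in CD4 and 17 in CD8 cells, 6 with DESeq2, 73 without a filter on low counts, 85 without a limit on the fold change, and 32 to 81 without each library, 81 without sh-B7-H3 (1) replicate 2. Genes called in Hsp-zero cells (602) numbered 300 with Ccl5 under 3 UMIs, 234 in CD4 and 292 in CD8 cells, 238 without cells with other cell type RNA, 2487 without a limit on the fold change, and 314 to 594 without each library (314 and 327 without the sh-NC replicates 1 and 2). The interaction (12) gave 32 and 3 with minimums of 2 and 5 UMIs, 5 with 0.05% of UMIs, 0 with Ccl5 under 3 UMIs, 2 in CD4 and 19 in CD8 cells, 6 without cells with other cell type RNA, 23 with Hsp-zero cells chosen without the CD3 and Foxp3 conditions, 2 with DESeq2, 31 without a filter, and 8 to 65 without each library (65 and 55 without the sh-B7-H3 (1) replicates 1 and 2). Tags called (5) numbered 8 with 0.05% of UMIs, 3 in CD8 cells, 71 without a limit on the fold change, and 0 to 6 without each library (0 and 3 without the sh-NC replicates 1 and 2). Genes 2-fold apart between states (6) numbered 3 with a minimum of 2 UMIs, 3 with up to 6000 genes, 14 with the wider Hsp-zero set (2 higher and 12 lower), 10 without a CPM minimum, and 6 to 11 without each library (11 without either sh-B7-H3 (1) replicate); tags 1.5-fold apart (0) numbered 1 with up to 6000 genes and 0 to 2 without each library (2 without sh-B7-H3 (1) replicate 2). The causes of these shifts were not tested.

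With the replicate number as a block, 33 genes were called in heat-shock cells, 593 in Hsp-zero cells and 3 tags; the numbers do not pair the samples. With crossed numbers, an alternative chosen after the data were examined, these were 35, 611 and 3. Few cells set the limit: 79 and 110 heat-shock cells in the sh-B7-H3 (1) libraries, so that single cells can carry a call.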
